A study of Rattus norvegicus with 9 samples.

Results

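The leukocyte miRNAs mir-142, mir-150, mir-223, mir-146a and mir-146b were examined in small RNA libraries of the rat left ventricle. Their members were chosen by name: every sequence filed under a rat miRBase entry with one of these 5 names, of any match type and including the minor (*) strand. The rule found 839 of 46358 annotated sequences, with 80568 of 7631327 annotated reads over the 9 libraries, or 1.06% of all annotated reads. These sequences fell into 9 rat entries (name and strand) of 577. The tissue came from the free wall of the left ventricle of 3 male Sprague-Dawley rats (hearts 6, 7 and 8) aged 8 months. No rat carried a labelled treatment or allele. Each wall was divided into epicardium, mid-myocardium and endocardium by cuts about 1 mm below either surface, which gave 1 library for each layer of each heart. The layers are pieces of whole tissue with every cell type of the wall and the blood left in it, so that fewer cells of a type and less miRNA per cell cannot be told apart.

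miRNAs are cut from a hairpin precursor, and bases 2 to 8 of the mature strand, the seed, do most to choose the mRNAs they repress. mir-142 is made in nearly all blood cell lineages, mir-150 is most abundant in mature B and T lymphocytes, and mir-223 belongs to the myeloid lineage and above all to neutrophils. mir-146a and mir-146b are induced through NF-κB and act back on that pathway through its adaptors, and they are also made by cells outside the blood, endothelium among them. In heart muscle such miRNAs are commonly read as a trace of blood and of resident immune cells, since cardiomyocytes make little of mir-142 or mir-223.

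The mature sequences are shown first because the isomiR results below turn on their ends. The RefSeq sequences used here (build GRCr8) covered 4 of the 5 names, and the deposited mature sequence was identical to the RefSeq 5p strand for mir-142, mir-146a and mir-146b and to the 3p strand for mir-223. For mir-150 the mature sequence is the deposited one, written with T. Capitals mark the seed.
mir-142-5p: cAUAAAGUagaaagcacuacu
mir-150: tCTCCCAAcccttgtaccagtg
mir-223-3p: uGUCAGUUugucaaauacccc
mir-146a-5p: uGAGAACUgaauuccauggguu
mir-146b-5p: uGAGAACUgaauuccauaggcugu
The pair mir-146a and mir-146b shared 1 seed and the first 17 nts, and differed by G18A and T21C (base of mir-146a, position from the 5′ end, base of mir-146b) and in length, 22 against 24 nt. The other 3 seeds differed from it and from each other. The hairpins lay at chr10:73055104-73055190 on the + strand (Mir142), chrX:65151383-65151492 on the + strand (Mir223), chr10:28349996-28350090 on the - strand (Mir146a) and chr1:255144860-255144947 on the + strand (Mir146b).

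The libraries held 283991 to 1428025 annotated reads. Abundance is given as RPMM, reads per 1000000 annotated reads of the library, and 3 reads corresponded to between 2.10 and 10.6 RPMM. Pearson's r between libraries, over 169 entries with a mean of at least 100 RPMM, ran from 0.933 to 0.992. The epicardium of heart 8 and the endocardium of heart 7 stood apart. Their summed muscle miRNAs (mir-1, mir-133a, mir-133b, mir-208, mir-208b, mir-499 and mir-206) came to 54340 and 61861 RPMM, against 94128 to 142826 RPMM in the other 7 libraries. This muscle sum was mostly mir-133a, with 47685.5 and 55337.3 RPMM there. mir-133b, mir-208 and mir-499 were also lowest in the endocardium of heart 7. Not every name followed. mir-1 was lowest in the endocardium of heart 6 (2696 RPMM) and mir-208b in the epicardium of heart 7 (1587 RPMM). mir-208 in the epicardium of heart 8 (722 RPMM) was above its mean of 565 RPMM. The differences between endocardium and epicardium are therefore also given without the libraries that stood apart, a choice made after the data were seen.

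The 5 miRNAs differed in abundance by more than 2 orders of magnitude, and their order was the same in all 9 libraries. mir-150, the lymphocyte miRNA, held 83.3% of the member reads and averaged 9113 ± 2362 RPMM (SD, n = 9), rank 17 of the 577 rat entries. mir-146a averaged 923 ± 176 RPMM and ranked 61. mir-142 averaged 535 ± 93.9 RPMM and ranked 76. Next came mir-146b with 209 ± 68.8 RPMM, rank 100, and mir-223, the neutrophil miRNA, was the scarcest with 44.8 ± 15.6 RPMM, rank 173. All 5 mature strands are of 21 to 24 nt. Adapter ligation and PCR favour some miRNA sequences over others, and their part in this order was not tested. The cells that these reads came from were not measured either, so the order is not a measure of cell numbers. Neighbours in it did not overlap over the 9 libraries, with 1 exception. mir-146a exceeded mir-142 by only 1.04-fold in the epicardium of heart 7, and the ranges of these miRNAs overlapped.

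mir-150 was measured at 9251, 11920 and 5144 RPMM in the epicardium of hearts 6, 7 and 8. In mid-myocardium it stood at 10289, 8967 and 7301 RPMM, and in endocardium at 12895, 8255 and 7995 RPMM. The layers overlapped widely, with means of 8771 ± 3413, 8852 ± 1498 and 9715 ± 2757 RPMM (SD, n = 3). By heart, the 3 libraries of heart 8 were the lowest of the 9, and its mean there was 6813 RPMM, against 10812 RPMM for heart 6 and 9714 RPMM for heart 7.

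mir-223 was measured at 42.6, 44.1 and 19.3 RPMM in epicardium, 63.4, 46.5 and 54.1 RPMM in mid-myocardium, and 56.2, 20.3 and 56.6 RPMM in endocardium, in the order of hearts 6, 7 and 8. These values rest on 18 to 57 reads a library, and the exact 95% Poisson interval of the lowest (18 reads) ran from 11.5 to 30.5 RPMM. The highest, in the mid-myocardium of heart 6, also rested on 18 reads, with an interval from 37.6 to 100 RPMM. Intervals and floors cover counting error only, since no molecular identifiers were used and PCR copies of 1 molecule count as separate reads. The low values were those of the epicardium of heart 8 and the endocardium of heart 7, the libraries with the lowest muscle sum. The other 7 libraries held 42.6 to 63.4 RPMM. Every mid-myocardial library exceeded every epicardial library in mir-223. Of the 453 entries tested, 4.64% showed such a gap in this direction, and the closest values here, 46.5 and 44.1 RPMM, lay well within each other's counting intervals.

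mir-142, the miRNA shared by most blood lineages, was the steadiest of the 5, with a coefficient of variation of 17.6% over the 9 libraries. It was measured at 577, 702 and 564 RPMM in epicardium, 419, 522 and 567 RPMM in mid-myocardium, and 441, 422 and 597 RPMM in endocardium. The epicardial mean was the highest, 614 ± 76.4 RPMM against 503 ± 75.9 and 487 ± 96.0 RPMM, but the 3 layers overlapped.

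mir-146a was measured at 1143, 728 and 1088 RPMM in epicardium, 842, 1014 and 863 RPMM in mid-myocardium, and 696, 1139 and 796 RPMM in endocardium. mir-146b was measured at 226, 148 and 218 RPMM in epicardium, 215, 219 and 184 RPMM in mid-myocardium, and 134, 369 and 167 RPMM in endocardium. Both were low in the epicardium of heart 7 and the endocardium of heart 6, and mir-146b was highest by a wide margin in the endocardium of heart 7. The ratio of mir-146a to mir-146b lay between 3.92 and 5.21 in 8 libraries and fell to 3.09 in that endocardium.

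**Figure D1:**
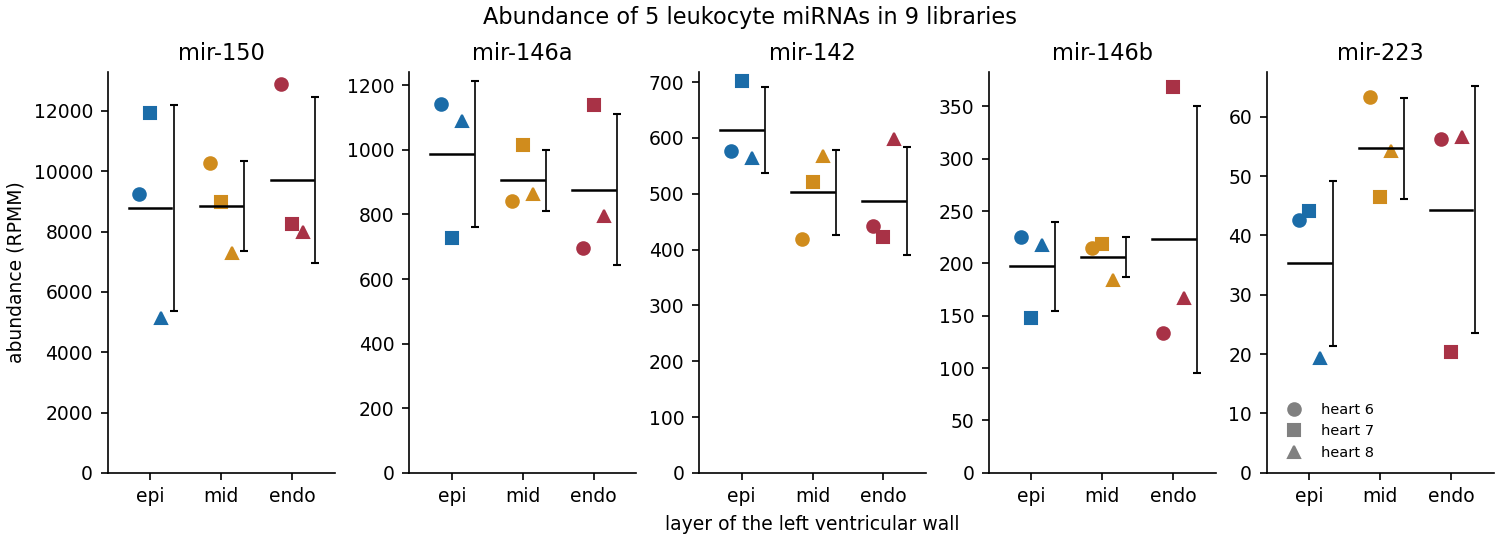
Abundance of the 5 miRNAs (RPMM, linear axes from 0) in the epicardium (epi), mid-myocardium (mid) and endocardium (endo), 1 point per library with the heart as symbol, black lines for layer means and error bars for SD (n = 3). The layers overlap for every miRNA except mir-223 in mid-myocardium against epicardium, and the heart 8 libraries are the lowest for mir-150. Of all 453 entries tested, 4.64% showed the first gap and 1.1% the second.

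Whether these miRNAs form a transmural gradient was tested by limma on log2(RPMM + 1) over the 453 entries (any species) that reached 10 reads in 1 or more libraries. Of the 9 member entries, 7 passed that filter. The other 2, mir-146a* and mir-146b*, had 4 and 3 reads in all. No member differed between layers at an adjusted p of 0.05 in any of the 3 comparisons. Of all entries tested, 0% were called in endocardium against epicardium, 0% in mid-myocardium against epicardium and 0% in endocardium against mid-myocardium. At an unadjusted p under 0.05 the same 3 comparisons held 16, 14 and 16 of the 453 entries and none of the members. edgeR's quasi-likelihood test and DESeq2 on the recovered reads likewise called none of the entries.

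For endocardium against epicardium, mir-142 had the lowest unadjusted p among the 5 main entries, with a log2 difference of -0.34 ± 0.26 (SE) and a 95% interval from -0.94 to 0.25 (limma, adjusted p = 0.992). For mir-150 the log2 difference was 0.20 ± 0.37, with an interval from -0.63 to 1.02, and it was -0.15 when the epicardium of heart 8 was left out. For mir-223 it was 0.27 ± 0.46, with an interval from -0.77 to 1.31, and -0.10 without the same library. mir-146a stood at -0.17 ± 0.30, at -0.38 without the epicardium or the endocardium of heart 7, at -0.05 and -0.02 without the epicardium and the endocardium of heart 6, and at -0.09 without the epicardium of heart 8. mir-146b stood at 0.06 ± 0.39, and at -0.37 without the endocardium of heart 7. Of the scarcer entries, mir-150* stood at 0.19 ± 0.48. The entry shared by mir-146a and mir-146b had the largest difference, 1.41 ± 0.86, with an interval from -0.52 to 3.34, and a lower unadjusted p than mir-142. Without both the epicardium of heart 8 and the endocardium of heart 7 the log2 difference was -0.31 for mir-142, -0.05 for mir-150, 0.37 for mir-223, -0.29 for mir-146a and -0.29 for mir-146b. The intervals above are not adjusted for the number of entries tested. In this comparison 16 of the 453 entries had an unadjusted p under 0.05 in limma, and none was called after adjustment. Changes smaller than these intervals, and some larger ones, were therefore not detectable with 3 hearts.

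For mid-myocardium against epicardium the log2 difference was 0.69 ± 0.46 for mir-223, the largest of the 5 main entries, with an interval from -0.35 to 1.73 (limma, adjusted p = 0.936). The other 4 main entries lay between -0.29 and 0.08. Endocardium against mid-myocardium gave -0.42 ± 0.46 for mir-223 (limma, adjusted p = 0.879), and between -0.07 and 0.11 for the other 4. The scarcer entries had larger differences there, 0.79 ± 0.48 for mir-150* and 1.41 ± 0.86 for the entry shared by mir-146a and mir-146b. For mid-myocardium against epicardium they stood at -0.60 ± 0.48 and -0.001 ± 0.86. Over the 7 member entries the median absolute log2 difference was 0.20, 0.10 and 0.11 in the 3 comparisons, beside 0.25, 0.28 and 0.32 over all 453 entries.

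**Figure D2:**
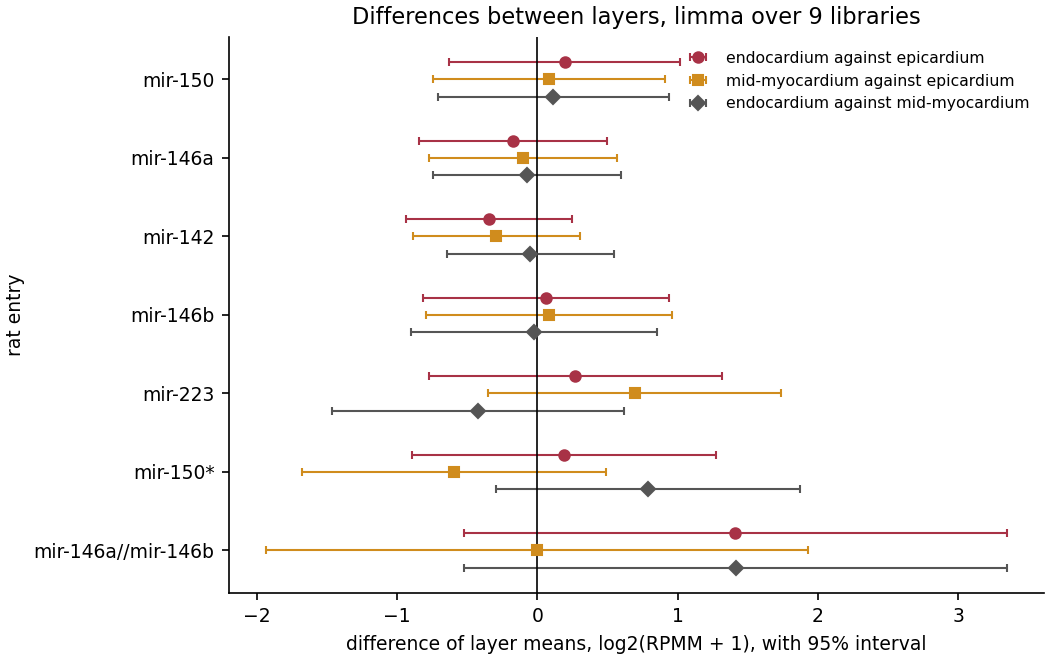
Difference between layers in log2(RPMM + 1) for the 7 member entries tested, with 95% intervals from limma over 9 libraries, circles for endocardium against epicardium, squares for mid-myocardium against epicardium and diamonds for endocardium against mid-myocardium. All 21 intervals include 0, and they are widest for the entry shared by mir-146a and mir-146b, which had at most 12 reads in a library.

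Differences between the hearts were tested with limma's F statistic, layer being kept as a covariate. None of the 7 member entries passed, as was the case for 0% of all entries, while 47 of the 453 had an unadjusted p under 0.05. The lowest member p values were those of the strands of mir-150, with an adjusted p of 0.582 for mir-150* and of 0.658 for mir-150. All 3 heart 8 libraries were below the other 6 in mir-150, a gap found in 1.1% of all entries tested. Such gaps were looked for in every pair of layers and every heart, in both directions, for the 7 member entries. Only this one and that of mir-223 between layers were found. edgeR's quasi-likelihood F test called 10 of the 453 entries between hearts, and none was a member.

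Markers of other cells were read in the same libraries, summed by name over species and strands. The red cell miRNA mir-451 averaged 671 ± 191 RPMM (SD, n = 9), below mir-146a and above mir-142, and mir-144 of the same gene cluster averaged 100 ± 56.4 RPMM. mir-486, which is abundant in red cells and in muscle, averaged 142385 RPMM. Of the other miRNAs linked to white cells, mir-155, which rises in activated lymphocytes and macrophages, averaged 22.7 ± 7.99 RPMM, and mir-342 averaged 110 ± 18.5 RPMM. mir-181a, abundant in developing lymphocytes but also in muscle, averaged 27165 RPMM. mir-126, the endothelial miRNA, ran from 10726 to 16108 RPMM. mir-206, of skeletal muscle, averaged 0.156 RPMM. Of the 21 marker names, 18 had an entry past the read filter that was filed under that name alone. None of their 39 entries (rat and other species, both strands) was called between layers or between hearts by limma. Entries with joined names, such as those of mir-181a and mir-181b and the one shared by mir-133a and mir-133b, were not among the 39. In these fits 0 of all 453 entries were called.

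The libraries with the lowest muscle sum also had the lowest sum of the fibroblast miRNAs mir-199a and mir-214. It came to 1517 RPMM in the epicardium of heart 8 and 1494 in the endocardium of heart 7, against 2271 to 2861 RPMM elsewhere. mir-199a made up most of it. mir-214 was lowest in the epicardium of heart 8 (97.7 RPMM). In the endocardium of heart 7 it stood at 143 RPMM, above the 114 RPMM in that of heart 6. The epicardium of heart 8 and the endocardium of heart 7 had the most mir-486 and the most mir-143, a smooth muscle miRNA. For mir-143 they held 153326 and 142012 RPMM, against at most 123398 RPMM. mir-145, the other smooth muscle miRNA read, did not follow, with 1459 and 2244 RPMM there, against 1588 to 3288 RPMM elsewhere. mir-451 was at 377 and 510 RPMM there, against 487 to 960 RPMM, so that the red cell markers did not move together. Of the members, mir-223 was below its range in the other 7 libraries in both, mir-150 was below it in the epicardium of heart 8 alone, and mir-146b was above it in the endocardium of heart 7 alone. The part of these shifts in the members' values was not tested.

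Most mir-142 reads did not begin where the mature entry begins. Of 3901 reads from the 5p arm, 69.9% started 2 nts upstream and 28.6% at the canonical first base. The 4 most frequent deposited sequences are shown because they hold both 5′ starts, with capitals marking the 2 added nts where present. The 3 that start upstream share 1 seed and differ at the 3′ end.
20 nt, 1741 reads: CCcataaagtagaaagcact
21 nt, 893 reads: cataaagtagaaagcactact
22 nt, 436 reads: CCcataaagtagaaagcactac
21 nt, 208 reads: CCcataaagtagaaagcacta
The exact mature sequence was only the second most frequent, with 21.4% ± 7.61 of mir-142 reads (SD, n = 9), and the 20 nt sequence held 43.1% ± 5.92. The added nts move bases 2 to 8 from ATAAAGT to CCATAAA. The start and the end went together. Reads that began 2 nts upstream mostly ended 3 nts short of the mature 3′ end, and these made up 45.2% of the 5p reads. Reads with the canonical start mostly ended at the canonical last base, 23.4% of the 5p reads.

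The share of canonical starts in single libraries was 19.4%, 20.7% and 42.4% in the epicardium of hearts 6, 7 and 8, 19.5%, 41.5% and 26.5% in mid-myocardium, and 18.6%, 32.2% and 30.5% in endocardium. The 95% Wilson interval was 16.2 to 22.9% in the epicardium of heart 6 (102 of 527 reads) and 38.1 to 46.8% in that of heart 8 (209 of 493 reads). The layers had nearly equal means, 27.5% ± 12.9, 29.2% ± 11.2 and 27.1% ± 7.38 (SD, n = 3). The 3 libraries of heart 6 lay within 1 percentage point of each other, from 18.6 to 19.5%, and were with the epicardium of heart 7 the lowest 4. Hearts 7 and 8 each spread over more than 15 points.

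**Figure D3:**
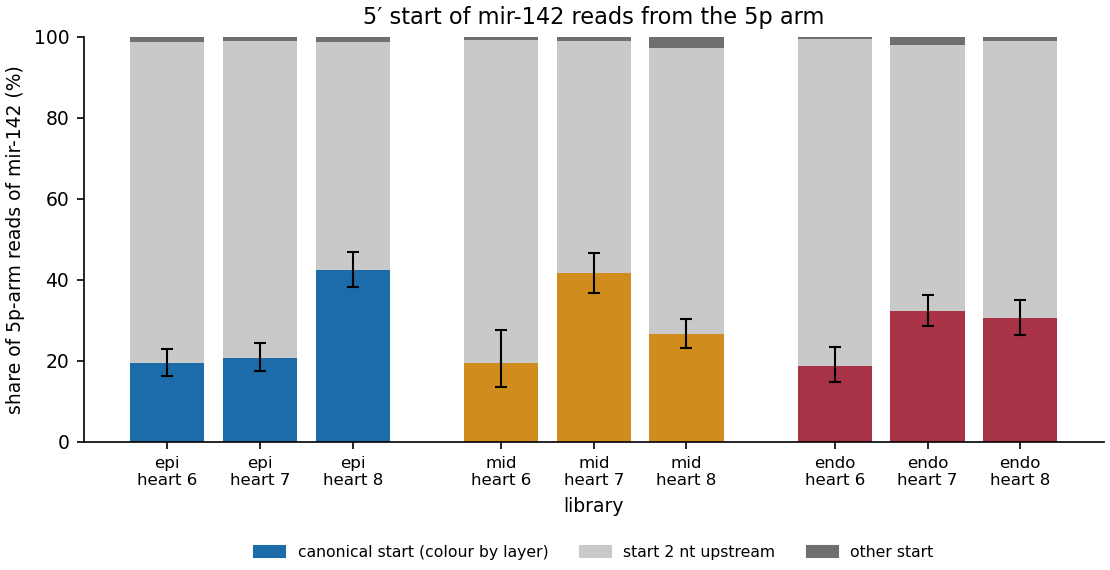
Share of mir-142 reads of the 5p arm (%) by 5′ start in each library, with the canonical start in the colour of the layer, the start 2 nt upstream in light grey and other starts in dark grey. Error bars are 95% Wilson intervals of the canonical share, which runs from 18.6% in the endocardium of heart 6 to 42.4% in the epicardium of heart 8.

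The filing of mir-142 reads differed from that of the other members. The authors filed 51.8% of its reads as matching the precursor rather than the mature sequence, the 20 nt sequence among them, against 1.41% for mir-150 and 0.439% for mir-146a. Their grouped table leaves such reads out of the non-* entries. It gives mir-142 a mean of 279, where all reads give 535 RPMM, a ratio of 1.92, while the ratio was 0.928 to 0.992 for the other 4. The grouped values of these 5 entries are on a smaller total than RPMM, so that an entry with few precursor reads has a ratio just below 1.

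The 3p arm of mir-142 gave 187 reads, 4.57% of the total, and is named in RefSeq but was filed without a * entry. Nearly all of these reads began at 1 of 3 places. The leading sequence for each of the 3 is shown, with bases 2 to 8 in capitals, because each start has another seed.
start +3, 44 reads: aGTGTTTCctactttatggatg
start +1, 31 reads: gTAGTGTTtcctactttatgga
canonical start, 27 reads: tGTAGTGTttcctactttatgga
Starts at the RefSeq first base held 28.3% of the 3p reads, starts 1 nt downstream 40.1% and starts 3 nts downstream 28.3%. Another 5 reads began 2 nts and 1 read 7 nts downstream. Libraries held 1 to 39 such reads each, too few for a comparison of layers.

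mir-150 kept its 5′ end and varied at the 3′ end. The canonical start held 99.0% of its 67070 major strand reads. The exact mature sequence, the most frequent, held 40.4% ± 2.18 (SD, n = 9) and the sequence 1 nt shorter 21.2% ± 1.36. Capitals mark the added nt of the 3 most frequent sequences that extend the mature one by 1 nt.
8460 reads: tctcccaacccttgtaccagtgA
8135 reads: tctcccaacccttgtaccagtgT
1837 reads: tctcccaacccttgtaccagtgC
The authors filed the form with C as an extension that the precursor holds and the forms with A and T as variants, with a mismatch at the added base. The A form held 12.8% ± 1.83 of mir-150 reads, the T form 12.2% ± 1.48 and the C form 2.69% ± 0.325. A form with G, also a mismatch, held 1.28% ± 0.612. The A form was highest in the epicardium of heart 8 (17.2%), where the other 8 libraries held 11.02 to 13.5%, and that library also had the lowest exact share, 36.7%.

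mir-146a and mir-146b share a seed but not their ends. Reads longer than the mature entry at the 3′ end held 50.0% ± 1.88 for mir-146a and 1.86% ± 1.53 for mir-146b. Shorter reads held 10.5% ± 1.10 and 36.9% ± 4.09. The ranges of the 9 libraries did not overlap in either case. The last nt was not in the RefSeq hairpin for 27.7% ± 1.26 of mir-146a reads, mostly T (16.8%) or A (8.08%), and for 4.01% ± 1.76 of mir-146b reads. The mature entry of mir-146b is 2 nts longer, so that the ends are counted from different lengths.
mir-146a, 2397 reads: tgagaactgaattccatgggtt
mir-146a with the templated A, 1039 reads: tgagaactgaattccatgggttA
mir-146a with T, 937 reads: tgagaactgaattccatgggttT
mir-146a with C before the first base, 269 reads: Ctgagaactgaattccatgggtt
mir-146b, 983 reads: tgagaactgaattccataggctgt
mir-146b 1 nt shorter, 470 reads: tgagaactgaattccataggctg
Capitals mark the added nts. mir-146a also had a second 5′ end, 1 nt upstream, in 11.2% ± 2.77 of its reads, which moves bases 2 to 8 from GAGAACT to TGAGAAC. It ran from 7.87% in the endocardium of heart 7 to 16.2% in that of heart 6. For mir-146b that start held 1.72% ± 1.09. Another 42 reads, filed under an entry shared by mir-146a and mir-146b, match both precursors and were not assigned to either.

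mir-223 was read from its 3p strand in 304 of 314 reads, and 10 came from the 5p strand. The canonical start held 93.1% of the 3p reads. At the 3′ end 171 of the 304 reads were longer than the mature entry, 89 were shorter and 44 ended at the same base. The 5 most frequent sequences had 37 to 42 reads each: the mature sequence (42), templated forms 1 and 2 nts longer (39 and 37), and forms 1 and 2 nts shorter (38 and 37). A non-templated T closed 22.04% of the 3p reads. The minor strand of mir-150 had 62 reads beside 67070 of the major strand, 0.0924% of both.

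**Figure D4:**
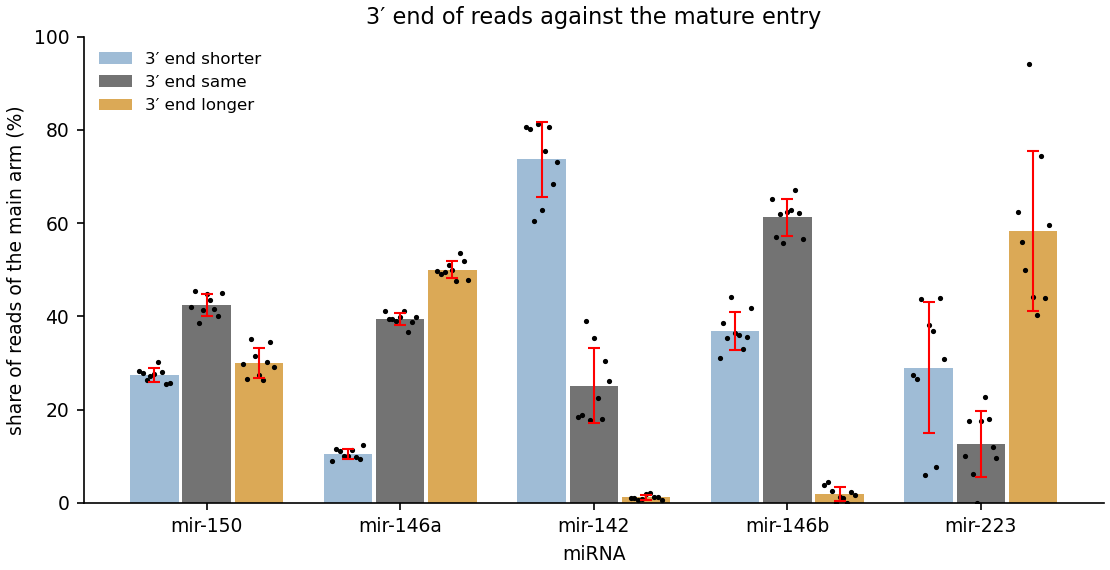
Share of reads (%) whose 3′ end is shorter than, the same as or longer than the mature entry, for the main arm of each miRNA, with bars for the mean over 9 libraries, red error bars for SD and black points for libraries. Longer reads are about 50.0% for mir-146a and under 5% in every library for mir-142 and mir-146b, and the spread is widest for mir-223, which had the fewest reads.

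The exact mature share did not separate endocardium from epicardium. The means were 20.8% ± 6.38 and 21.5% ± 11.1 for mir-142 (exact two-sided permutation test, p = 0.8), and 40.2% ± 2.38 and 39.9% ± 3.07 for mir-150 (exact permutation test, p = 1). For mir-146a they were 31.5% ± 3.22 and 33.05% ± 1.68 (exact permutation test, p = 0.6), for mir-146b 58.1% ± 2.97 and 56.8% ± 4.36 (exact permutation test, p = 0.7), and for mir-223 11.6% ± 5.37 and 11.1% ± 6.12 (exact permutation test, p = 0.8). The smallest p that 3 libraries against 3 allow is 0.1.

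Across the 9 libraries, mir-146a and mir-146b were the pair of members with the most similar pattern (Pearson's r = 0.854 on log2(RPMM + 1)), and r between mir-150 and mir-223 was 0.601. The remaining pairs were negative or near 0. With mir-150, r was -0.609 for mir-146a and -0.429 for mir-146b, and with mir-223 it was -0.686 and -0.649. For mir-142 with each other member it ran from -0.430 to 0.051. Among 165 other entries with a mean of at least 100 RPMM, mir-223 was most like mir-199a (r = 0.944), the entry shared by mir-133a and mir-133b (0.930), and the entry shared by mir-27b and mir-27a (0.900). mir-150 was most like the mouse entry mir-5105 (0.840), the mir-27b and mir-27a entry (0.825) and mir-145 (0.822). mir-142 was most like mir-125b (0.848), the cow entry mir-2478 (0.817) and mir-338 (0.800). mir-146a was most like mir-716a of the Tasmanian devil (0.732), mir-143 (0.639) and mir-10b (0.583), and mir-146b was most like the same mir-716a entry (0.805), the mouse entry mir-5109 (0.752) and mir-181b (0.749). These r values describe 9 libraries from 3 hearts that are each scaled to the same total. Without the epicardium of heart 8 and the endocardium of heart 7, r was 0.893 for mir-146a with mir-146b but -0.0541 for mir-150 with mir-223. With mir-150 it was then -0.498 for mir-146a and -0.524 for mir-146b, and with mir-223 -0.479 and -0.153. For mir-142 with each other member it ran from -0.677 to 0.052. Over the same 7 libraries r was 0.489, 0.798 and 0.486 for mir-223, 0.584, 0.595 and 0.761 for mir-150 and 0.855, 0.781 and 0.744 for mir-142, each in the order named above. It was 0.657, 0.317 and 0.517 for mir-146a, and 0.432, 0.730 and 0.326 for mir-146b.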

How the data were processed

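The authors made TruSeq small RNA libraries from 3 layers of 3 hearts and annotated the reads in CLC Genomics Workbench against miRBase 18, with up to 2 mismatches and 3 added or missing nts at either end. The authors deposited annotated sequences as RPM over the annotated reads of each library (RPMM), a table grouped by miRNA with a signal in RPM that uses 2 different totals, and a raw count for each unannotated sequence. Reads were recovered from RPMM, and 100% of values were whole within 0.02 reads. Sequences filed under the 5 names were summed by entry. Those of 4 names were placed on the RefSeq hairpins, a step tested on simulated data, and those of mir-150 were aligned to its deposited mature sequence, with the match types of the authors for added bases.

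Layers were compared by limma on log2(RPMM + 1), a scale that understates changes of low entries, over entries with at least 10 reads in 1 library, with Benjamini-Hochberg adjustment over all of them. edgeR's quasi-likelihood test and DESeq2 were run on recovered reads as alternatives. Each heart gave all 3 layers, so the heart number pairs libraries. Deviations from the layer means correlated at 0.148 on average within hearts (from -0.134 to 0.403) and at -0.0707 between hearts. The between-heart value is largely fixed by the within-heart one, since the deviations of a layer cancel over its hearts. The members, marker names and lists were chosen with earlier results of these data known. All member entries and the 3 entries most similar to each are named. Of the more frequent sequences of an entry, those that bear on a result are printed. Each layer of a heart is 1 library, so the spread holds animal and technical variation together. R 4.3.3, limma 3.58.1, edgeR 4.0.16, DESeq2 1.42.0, Python 3.11.15, pandas 2.3.3, numpy 2.4.6 and scipy 1.17.1 were used.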

Additional observations from a re-analysis of the deposited data

Results flagged for a closer look

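Reads filed under entries of other species with these 5 names were not part of the comparisons. They numbered 83, on 47 sequences, 20 entries and 14 species. mir-150 held 51 of them, mir-146a 16, mir-146b 9, mir-142 6 and mir-223 1, beside 80568 reads of the rat entries. No unannotated sequence held the first 15 nts of a mature member or lay within one of the 4 RefSeq hairpins.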

How the results depend on the processing

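The count of members called was 0 under every alternative run, 19 for endocardium against epicardium, 18 for each of the other layer comparisons and 17 between hearts, including all 9 fits that leave out 1 library. With heart number as replicate block (paired libraries) 0 members were called in each layer comparison. Between hearts, the count over all entries was 0 in the reported fit, 10 with pseudocount 10, 10 with edgeR, 2 without the filter, and 1 and 5 without the epicardium and the mid-myocardium of heart 8. The log2 difference of endocardium against epicardium was never called. It turned sign without the 2 libraries lowest in the muscle sum for mir-146b (-0.29), mir-150 (-0.048) and mir-150* (-0.39). With 1 library left out it ran from -0.50 to -0.24 for mir-142, -0.38 to -0.02 for mir-146a and -0.37 to 0.36 for mir-146b. It ran from -0.15 to 0.46 for mir-150, -0.20 to 0.43 for mir-150* and -0.10 to 0.75 for mir-223. For the shared mir-146 entry it ran from 0.57 to 1.90 over the 8 such fits in which that entry passed the read filter. The sign turned without the epicardium or endocardium of heart 7 for mir-146b, without the epicardium of heart 8 or the endocardium of heart 6 for mir-150, and without the epicardium of heart 8 for mir-150* and mir-223. With 1 heart left out the difference in exact share ran from -6.52 to 4.72 percentage points for mir-142, -3.002 to 1.18 for mir-146a, -1.20 to 4.30 for mir-146b, -2.69 to 2.71 for mir-150 and -2.94 to 4.46 for mir-223. The cause was not tested. Depth limits mir-223, mir-150* and the shared mir-146 entry, with at most 57, 18 and 12 reads a library.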
